A study of Mus musculus with 6 samples.

Results

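The BCL2 family of apoptosis regulators was examined through 10 genes chosen by name: the survival genes Bcl2, Bcl2l1 and Mcl1, the effectors Bax and Bak1, and the BH3-only genes Bad, Bid, Bcl2l11, Bbc3 and Pmaip1. A member was read from the probe sets whose platform annotation names that gene alone, and the probe set with the highest mean over the 6 arrays stood for it. By this rule 9 of the 10 members had a probe set and all 9 were tested, among 12277 genes tested in all; no value is given for Bax. The 9 members had 29 probe sets between them, of which 28 passed the filter on dim probe sets.

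The cells were endothelial cells, which line blood vessels, taken from mouse lung and held at 0.5% oxygen for 16 h, with 3 arrays of control cells and 3 of knockout cells. The knockout cells came from animals with VE-Cadherin-Cre and 2 floxed copies of the HIF-2a gene Epas1, so that Cre, driven by the promoter of an endothelial cadherin, acts in endothelial cells. Control cells are given in 3 ways by the labels: as wild type, as floxed/WT with VE-Cadherin-Cre, and as floxed/floxed. No array was made at normal oxygen, so the comparison is of genotypes under hypoxia. The labels give no age and no number of animals or cultures, and p-values therefore measure only the spread between these arrays, which may be technical.

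Proteins of the BCL2 family decide whether the outer mitochondrial membrane is opened and cytochrome c is let out to start the caspases. Survival members hold the effectors Bax and Bak1 in check, and BH3-only members, which are switched on by stress, damage or loss of growth factors, bind the survival members or act on the effectors. In endothelium, BIM (the product of Bcl2l11) is known for its part in cell death after growth factor loss and in the pruning of vessels. HIF-2α is an oxygen-sensitive transcription factor that binds short DNA elements with the core ACGTG or GCGTG.

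Median signals of the arrays lay between 5.52 and 5.66 intensity units, and 41.4% to 42.5% of probe sets lay at or over 16 units, taken here as the floor. The bright Epas1 probe set averaged 9549 ± 90.9 intensity units in controls and 9392 ± 469 in knockouts (mean ± SD, n = 3 each); the position of its probes was not used here, so the genotype rests on the labels. Endothelial markers were present, with 11 of 12 at or over the floor in all arrays and Cdh5 between 14351 and 23571 units, and their summed level was 145320 to 157734 units in controls and 119565 to 133325 in knockouts. Of these 12, 4 were called lower and 0 higher in the knockouts, where 5.07% of all genes were called lower: Tek (8914 to 3818 units on average, log2 difference -1.24, limma adjusted p = 0.0161), Erg (-0.67), Tie1 (-0.65) and Pecam1 (-0.34). Of 9 leukocyte markers with a probe set, 8 were under the floor in all arrays, Ptprc among them, and Cd68 was between 3688 and 4252 units in controls and between 756 and 1126 in knockouts. All 6 fibroblast markers and all 7 epithelial markers were under the floor in every array, and 6 of 7 mural markers were. The remaining mural marker, Tagln, read 44.0, 74.9 and 32.1 units in controls and 207, 167 and 70.2 in knockouts, with overlap and without passing (1.25 ± 0.46, limma adjusted p = 0.144). Of 3 erythroid or platelet markers with a probe set, Hba-a1 and Itga2b were under the floor. Pf4 was between 3529 and 3907 units in controls and between 4630 and 6312 in knockouts, apart but not passing (limma adjusted p = 0.0623). The part of these marker levels in the results was not tested. The pair of controls 1 and 3 was the closest of all pairs, with an SD over genes of 0.137 for their log2 difference against 0.308 to 0.923 elsewhere, so results are also given with these controls averaged into 1 sample.

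Upstream sequences are shown for Bcl2l11, the member that passed the test, and for Bnip3, the relative of the family that did. Capitals mark the HIF core ACGTG, its variant form GCGTG and the element GTAAACA, which FOXO factors bind, on either strand, in the 250 bases before a start site (RefSeq, GRCm38.p6).
Bcl2l11, chr2:128125788-128126037, plus strand: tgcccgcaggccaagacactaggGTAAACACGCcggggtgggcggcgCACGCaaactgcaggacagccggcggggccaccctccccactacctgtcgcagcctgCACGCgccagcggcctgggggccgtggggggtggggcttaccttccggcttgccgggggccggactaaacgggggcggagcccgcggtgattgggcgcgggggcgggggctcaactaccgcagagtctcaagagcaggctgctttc
Bnip3, chr7:138909507-138909756, minus strand: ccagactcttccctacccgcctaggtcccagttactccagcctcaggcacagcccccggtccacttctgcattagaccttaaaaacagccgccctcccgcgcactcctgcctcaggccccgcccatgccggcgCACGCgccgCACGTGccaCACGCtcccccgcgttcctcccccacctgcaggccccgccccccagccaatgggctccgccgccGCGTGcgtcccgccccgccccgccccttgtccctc

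The RefSeq table lists 2 windows for Bcl2l11, and the first listed is printed. It held GCGTG in 3 places and GTAAACA in 1, with a GCGTG match overlapping the GTAAACA match, and no ACGTG; the other Bcl2l11 window held 0 matches of each of these elements. The Bnip3 window held ACGTG on both strands of 1 palindrome, counted as 2 matches, with 3 matches of GCGTG. Of 32851 windows of this length in the RefSeq table, 16.6% held ACGTG, 28.2% held GCGTG and 3.2% held GTAAACA. For the members, windows of 1 chromosome were left out of the count, and no Pmaip1 window was counted. The share over all windows was taken without that exclusion. The 14 windows counted belonged to 8 of the measured members. Of these windows, 1 held ACGTG, 7 held GCGTG and 2 held GTAAACA. The ACGTG window belonged to Bbc3. Such matches describe the letters and are not binding sites.

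Among the 9 measured members, Bcl2l11 fell in the knockout arrays, none rose, and 8 did not pass the test. The test was limma's moderated test on log2(intensity + 16), in which a difference of 1 is a doubling for bright genes, with p-values adjusted over all 12277 genes and a threshold of 0.05. Over all genes, 13.7% passed in either direction with 8.63% higher and 5.07% lower, so 1 of 9 is near the background. The median difference of the members was -0.11, against 0.01 over all genes. In fits without 1 array the count of called members ran from 0 to 4, while that of all 12277 genes ran from 207 to 3008. With controls 1 and 3 averaged 0 of 9 members passed in limma, with 3 at an unadjusted p under 0.05. Only 194 of 12277 genes passed in that fit, so 0 of 9 is near its background.

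**Figure D1:**
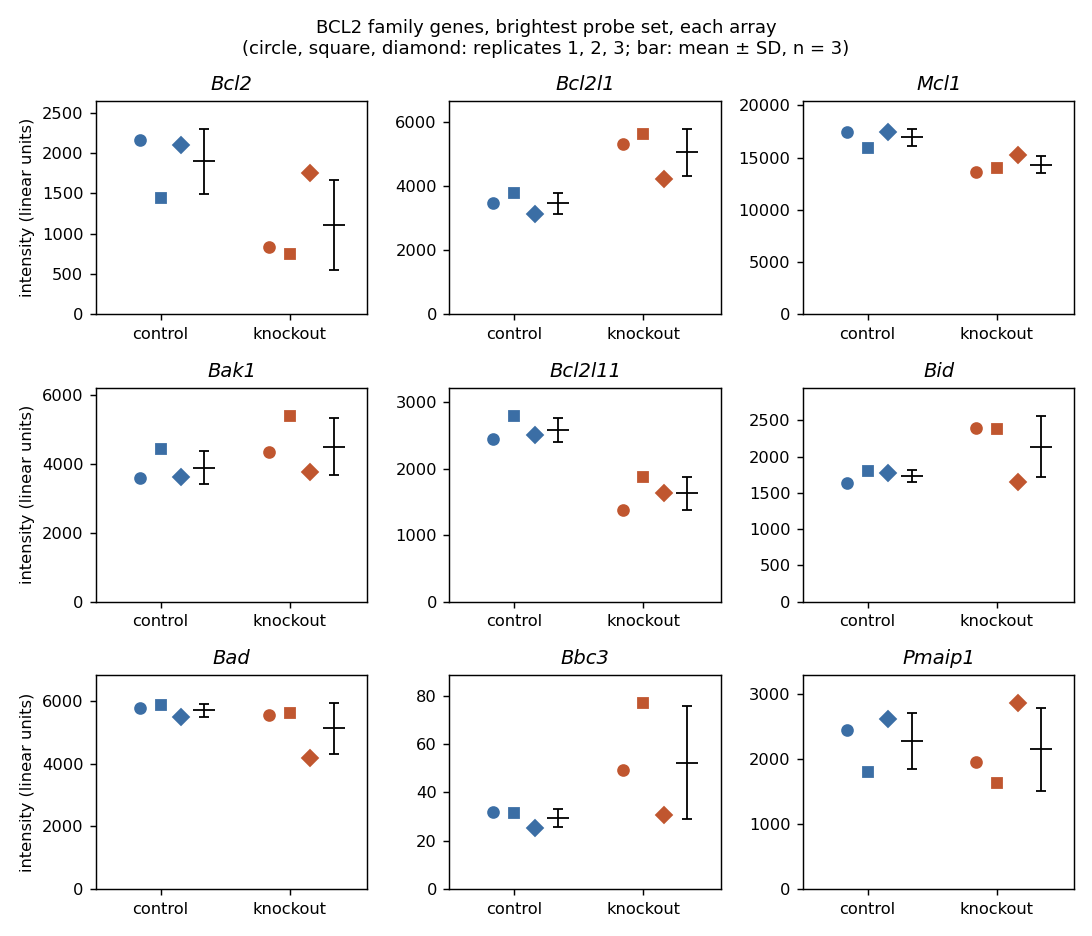
Signal of 9 BCL2 family genes (brightest probe set, intensity in linear units, y axis from 0) in 3 control and 3 knockout arrays, with symbols for replicates 1 to 3 and a bar for mean ± SD. The groups are apart for Bcl2l11, Mcl1 and Bcl2l1, and overlap for the other 6.

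Bcl2l11 encodes BIM, a BH3-only protein that binds all main survival members. Its signal was 2452, 2795 and 2505 intensity units in controls 1 to 3, and 1382, 1874 and 1636 in knockouts 1 to 3. Every knockout array was below every control array. The means were 2584 ± 185 and 1631 ± 246 units (SD, n = 3 each), 1.58-fold lower in the knockouts. On the log2 scale it fell by 0.67 ± 0.13 (SE, limma adjusted p = 0.0395). The 95% interval of the difference ran from -1.01 to -0.33. Of all genes tested, 81.0% had a smaller difference in size, with dim genes, whose differences are understated, counted among them.

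The call of Bcl2l11 rested on the set of arrays. With each array left out in turn it passed in 1 of 6 fits, the one without knockout 2 (adjusted p = 0.043). The adjusted p was 0.1304 without control 1, 0.0937 without control 2, 0.135 without control 3, 0.0836 without knockout 1 and 0.0569 without knockout 3, and 0.129 with controls 1 and 3 averaged. The difference itself kept its sign in each of 23 alternatives, from -0.84 to -0.29. A dimmer Bcl2l11 probe set read 596, 647 and 620 units in controls and 343, 603 and 423 in knockouts, with a difference of -0.47 ± 0.22 (limma adjusted p = 0.257 over probe sets). Its knockout 2 value lay among the controls. In the fit over all probe sets the brightest one gave adjusted p = 0.0541, and the other 3 probe sets had most or all arrays under the floor.

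Mcl1 encodes a short-lived survival protein that is lost fast when its synthesis stops. It read 17412, 15953 and 17403 units in controls, and 13668, 14031 and 15240 in knockouts, with no overlap between the groups. The means were 16923 ± 840 and 14313 ± 823 units, a log2 difference of -0.24 ± 0.06 (adjusted p = 0.0653), which did not pass. Its other probe sets were all lower on average in the knockouts, so that 6 of 6 pointed down. Of these, 3 passed in the fit over all probe sets, at -0.18 ± 0.02 (adjusted p = 0.0285), -0.24 ± 0.04 (adjusted p = 0.0412) and -0.29 ± 0.05 (adjusted p = 0.0435), where 7.65% of probe sets passed, with 4.46% higher and 3.19% lower. They are probe sets of 1 gene on the same arrays and not independent of each other. All that passed have platform names ending in _x_at, and those ending in plain _at did not pass. What their probes match was not examined. A plain one had groups that overlapped, with 8145 units in control 2 and 8221 in knockout 2 (limma adjusted p = 0.216 over probe sets). With the mean of the Mcl1 probe sets in place of the brightest, the gene passed (-0.23, adjusted p = 0.0204). The fit over all probe sets called 3 of 28 probe sets of members, all of Mcl1, and without single arrays between 0 and 6.

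Bcl2l1 encodes the survival protein BCL-XL. The signal was 3484, 3780 and 3147 units in controls, and 5334, 5628 and 4218 in knockouts. Every knockout array was above every control array, with knockout 3 the closest to the controls. The means were 3470 ± 317 and 5060 ± 744 units, a log2 difference of 0.54 ± 0.14 (adjusted p = 0.0708), which did not pass. The 2 other probe sets over the floor also had groups that did not overlap, with differences of 0.50 ± 0.19 and 0.60 ± 0.22, and did not pass (adjusted p = 0.189 and 0.176 over probe sets). A further probe set was under the floor in all arrays and left out by the filter.

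Bcl2, the founding survival gene of the family, had the largest difference in size among the members and the widest spread. It read 2168, 1439 and 2095 units in controls, and 831, 748 and 1752 in knockouts. Knockouts 1 and 2 were below all controls, while knockout 3 lay above control 2. The difference was -0.85 ± 0.39 (adjusted p = 0.218), with a 95% interval from -1.88 to 0.18. All 5 Bcl2 probe sets were lower on average in the knockouts and none passed; 2 of them were dim, with knockouts 1 and 2 under the floor, so their differences are limited by background. The probe set with the smallest spread read 324, 344 and 336 units in controls, and 216, 271 and 271 in knockouts, with no overlap (-0.39 ± 0.10, adjusted p = 0.0880 over probe sets).

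**Figure D2:**
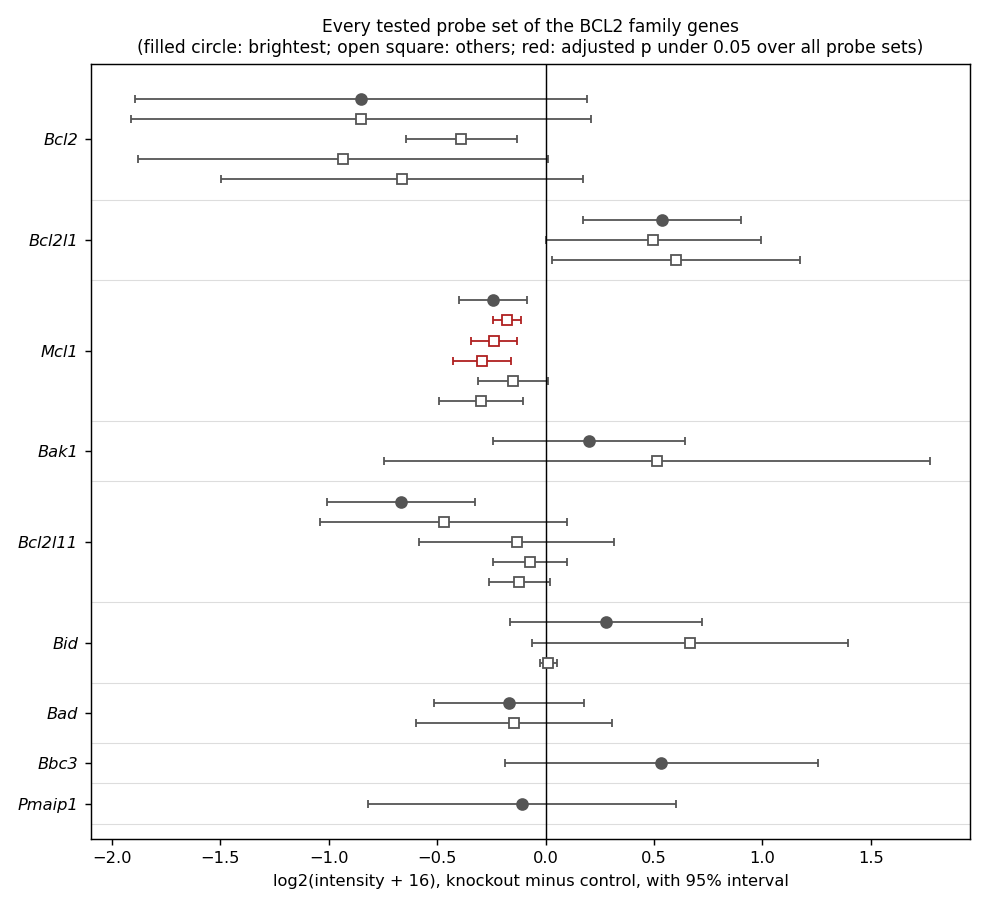
Difference of log2(intensity + 16), knockout minus control, with its 95% interval, for the 28 tested probe sets of the members. Filled circles are the brightest probe sets, open squares the others, and red marks the 3 Mcl1 probe sets that passed over all probe sets; all 5 Bcl2 and 6 Mcl1 points lie below 0 and the 3 of Bcl2l1 above it.

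Of the members, 3 of 9 had groups that did not overlap, namely Bcl2l11 and Mcl1 on the lower side and Bcl2l1 on the higher. Over all genes tested, 36.2% did not overlap, with 12.8% lower and 23.4% higher, so this share is also near the background.

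Bak1 encodes the effector that sits in the mitochondrial membrane and forms pores. Its values were 3591, 4433 and 3619 units in controls, and 4325, 5385 and 3760 in knockouts. The groups overlapped, and the difference was 0.20 ± 0.17 (adjusted p = 0.468, 95% interval -0.24 to 0.64). Its dimmer probe set gave 0.52 ± 0.48 (adjusted p = 0.552 over probe sets).

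The other BH3-only genes did not pass either. Bid, which is cleaved by caspase 8 and links death receptors to mitochondria, read 1643, 1798 and 1772 units in controls, and 2390, 2378 and 1651 in knockouts. Knockouts 1 and 2 were above all controls, whereas knockout 3 lay between control 1 and control 3 (0.28 ± 0.17, adjusted p = 0.321). A dim Bid probe set was between 54.9 and 66.3 units in controls and between 67.4 and 151 in knockouts, apart but not passing (0.67 ± 0.28, adjusted p = 0.220 over probe sets). Bad, which survival kinases hold inactive by phosphorylation, read 5789, 5867 and 5477 units in controls, and 5568, 5616 and 4195 in knockouts. Its groups overlapped and knockout 3 was the lowest array (-0.17 ± 0.13, adjusted p = 0.441).

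Bbc3 and Pmaip1 encode PUMA and NOXA, BH3-only proteins known as p53 targets. Bbc3 was dim, at 31.6, 31.6 and 25.2 units in controls and 49.1, 76.9 and 30.7 in knockouts, close enough to the floor that the pseudocount of 16 shrinks its difference (0.53 ± 0.27, adjusted p = 0.257). Knockout 3 lay among its controls. Pmaip1 read 2438, 1791 and 2607 units in controls, and 1951, 1624 and 2855 in knockouts. Here knockout 3 was the highest of all 6 arrays and knockout 2 the lowest (-0.11 ± 0.27, adjusted p = 0.854, 95% interval -0.81 to 0.59).

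The spread inside the groups had a shape that most members shared with most of the genes tested. Knockout 3 was above the mean of knockouts 1 and 2 by 1.14 on the log2 scale for Bcl2, 0.68 for Pmaip1 and 0.14 for Mcl1. It was below that mean for Bbc3 (-0.74), Bid (-0.53), Bad (-0.41), Bcl2l1 (-0.38) and Bak1 (-0.36), and 0.02 above it for Bcl2l11. Control 2 departed from controls 1 and 3 in the opposite direction for 8 of the 9 members, all but Bcl2l11. So it did for 74.4% of all genes tested, so this is not particular to the members. Over all genes, 1 axis held 87.1% of the variance within groups, with knockout 3 (0.66) and knockout 2 (-0.53) at its ends and control 2 at -0.42. The 3′ to 5′ signal ratio of actin, a measure of RNA and labelling quality, was 1.55, 1.45 and 1.59 in controls and 1.42, 1.42 and 1.49 in knockouts; its part in the results was not tested.

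**Figure D3:**
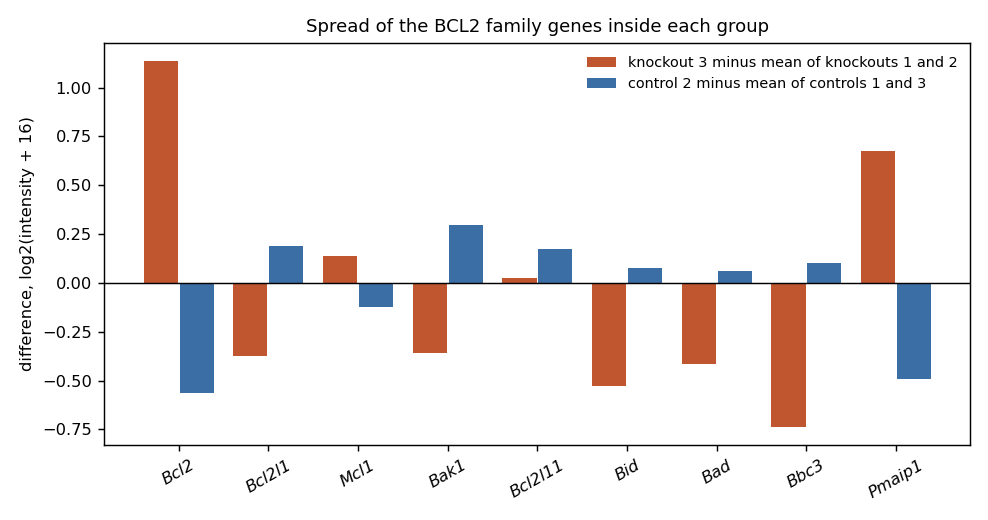
Departure of knockout 3 from the mean of knockouts 1 and 2, and of control 2 from the mean of controls 1 and 3, in log2(intensity + 16), for each member. Bcl2 (1.14) and Pmaip1 (0.68) stand highest in knockout 3 and Bbc3 (-0.74) lowest. The control bars point the opposite way for all members but Bcl2l11, as for 74.4% of all genes tested.

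Which members passed depended on the arrays used, among them knockout 3. Without it, 4 of 9 passed: Bcl2 fell by 1.23 (log2 difference, adjusted p = 0.0377), Mcl1 fell by 0.29 (adjusted p = 0.0378), Bcl2l1 rose by 0.66 (adjusted p = 0.0269) and Bid rose by 0.45 (adjusted p = 0.0196), while 3008 of 12277 genes passed over all. The Bcl2l11 call ended there, as it did without any other array but knockout 2. Without control 2 and knockout 3 together the same 4 members passed, at -1.42 for Bcl2, -0.33 for Mcl1, 0.72 for Bcl2l1 and 0.48 for Bid (adjusted p = 0.0111, 0.0156, 0.0198 and 0.0206). In that fit 4644 of 12277 genes passed, so 4 of 9 is near its background, and its controls are the close pair 1 and 3, which may be technical repeats. With spike-in signal as a covariate, 0 of 9 members passed in limma (1 at an unadjusted p under 0.05). Over all, 444 of 12277 genes passed in that fit, so 0 of 9 is near its background. The differences of Bcl2, Bak1, Bid and Pmaip1 changed sign. The mean log2 spike-in signal was 10.66, 10.88 and 10.78 in controls 1 to 3, and 11.03, 11.08 and 10.86 in knockouts 1 to 3. It followed genotype in part, so this fit cannot fully tell spike-in signal and genotype apart.

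**Figure D4:**
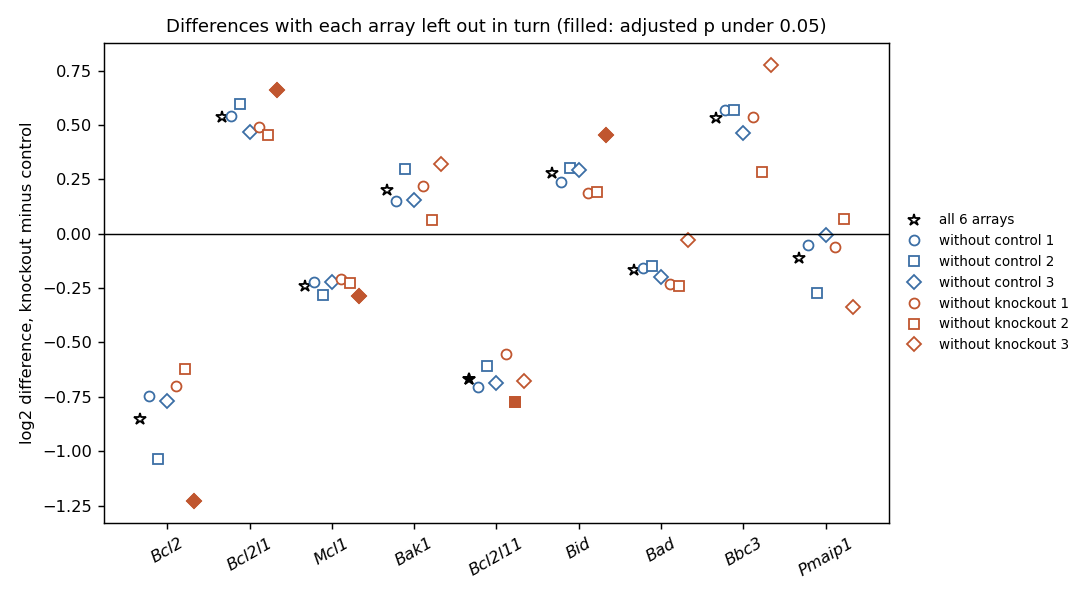
Difference of log2(intensity + 16), knockout minus control, for each member with all 6 arrays (star) and with each array left out in turn; filled symbols passed at an adjusted p under 0.05. Bcl2, Bcl2l1, Mcl1 and Bid are filled without knockout 3, and Bcl2l11 with all arrays and without knockout 2.

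By the fixed rule, the genes whose values ran most like those of Bcl2 over the 6 arrays were Strn, Ccdc88a and Ubn2 (Pearson r = 0.999 for each, as a description over 6 arrays). Strn read 3717, 1797 and 3735 units in controls and 745, 641 and 2701 in knockouts, again with knockout 3 between control 2 and the other controls. In all, 1361 of the 12277 genes tested had a correlation over 0.9 with Bcl2, so such likeness was common on these arrays.

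Of 17 other BCL2 relatives listed, 13 had a probe set and 11 were tested, with 1 lower (Bnip3), 0 higher and 10 not passed. This count is near the 13.7% called over all genes, and the list's median difference was 2.5e-05. Bnip3, a mitochondrial protein of mitophagy and cell death and a known HIF target, read 23330, 22585 and 24235 units in controls, and 18407, 17725 and 20541 in knockouts. It fell by 0.31 ± 0.07 (adjusted p = 0.0484), with every knockout below every control. It passed in 1 of 6 fits with an array left out, and not with controls 1 and 3 averaged (adjusted p = 0.164). Bcl2l14 was dim, at 30.8, 88.6 and 42.9 units in controls and under the floor in all knockouts, so that its level there is only a bound and no size of the difference is given; it did not pass (adjusted p = 0.0539). Bcl2l13, a mitochondrial relative, had a difference of 0.62 ± 0.17 (adjusted p = 0.0781), and Bnip1, which acts in transport to the endoplasmic reticulum, 0.49 ± 0.19 (adjusted p = 0.161). The survival gene Bcl2l2 read 6972 ± 712 units in controls and 6008 ± 475 in knockouts (adjusted p = 0.220), and Bcl2l10 and Hrk were under the floor in all arrays.

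Downstream of the family, Htra2, a protease released from mitochondria that blocks caspase inhibitors, rose. It read 7071, 7711 and 7046 units in controls and 13826, 12801 and 10834 in knockouts, a difference of 0.77 ± 0.10 (adjusted p = 0.0191). It was the 1 gene that passed of 14 in the list of mitochondrial release and apoptosome genes, whose median was 0.12, a count no higher than the 13.7% of all genes would give. Endog, a mitochondrial nuclease, had 0.61 ± 0.14 (adjusted p = 0.0583), the channel Vdac3 0.11 ± 0.03 (adjusted p = 0.0722) and Mtch2, a membrane receptor for BID, 0.26 ± 0.07 (adjusted p = 0.0722), each with groups that did not overlap.

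Of 6 tested caspases, Casp6, an executioner, fell and Casp4, an inflammatory caspase, rose, where 8.63% of all genes were called higher and 5.07% lower; a list of 6 is too short to set against these shares. Casp6 read 1193, 1364 and 1204 units in controls and 826, 963 and 874 in knockouts (-0.49 ± 0.08, adjusted p = 0.0302). Casp4 read 45.5, 27.0 and 44.7 units in controls and 256, 106 and 222 in knockouts (1.87 ± 0.37, adjusted p = 0.0404). Casp2 had 0.35 ± 0.10 (adjusted p = 0.0844). Casp1, another inflammatory caspase, was under the floor in all controls and in knockout 2, and at 111 and 155 units in knockouts 1 and 3 (adjusted p = 0.212).

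Of 10 tested death receptors and adaptors, Tnfrsf21 (DR6) rose and 9 did not pass, again near the 13.7% of all genes. Tnfrsf21 read 56.4, 88.4 and 39.8 units in controls and 318, 380 and 209 in knockouts (2.05 ± 0.33, adjusted p = 0.0273). The adaptor Traf2 had 0.99 ± 0.24 (adjusted p = 0.0618), the TNF receptor Tnfrsf1a -0.25 ± 0.06 (adjusted p = 0.0681) and the adaptor Fadd 0.63 ± 0.24 (adjusted p = 0.148).

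In the p53 pathway list 2 of 13 tested genes rose and 11 did not pass, near the 13.7% called over all genes. Aen, a nuclease induced by p53, rose by 0.50 ± 0.06 (adjusted p = 0.0145), from 7964 ± 332 to 11299 ± 694 units, and Tigar, a regulator of glycolysis, rose by 0.28 ± 0.06 (adjusted p = 0.0438). Mdm2, the p53 ligase, had -0.35 ± 0.14 (adjusted p = 0.156) and Zmat3 -0.13 ± 0.05 (adjusted p = 0.17). The list's median was -0.06.

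Among 26 tested upstream regulators of BCL2 proteins 3 rose and 23 did not pass, near the 13.7% called over all genes, with a median of -0.0052. Pim3, a kinase that phosphorylates BAD, read 7846, 8975 and 8024 units in controls and 14312, 15474 and 12724 in knockouts (0.77 ± 0.09, adjusted p = 0.0161). The co-chaperones Bag4 and Bag1 rose by 0.70 ± 0.13 (adjusted p = 0.0378) and 0.25 ± 0.05 (adjusted p = 0.0473). Foxo1, a factor that acts on Bcl2l11, read 1915, 1942 and 1927 units in controls and 2092, 2224 and 2337 in knockouts, apart but not passing (0.20 ± 0.04, adjusted p = 0.0539).

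Counts of called genes in these lists also turned on single arrays, as did the count over all genes. The latter ran from 207 to 3008 of 12277 with each array left out. In the same fits the list counts ran from 0 to 9 of 26 tested for upstream regulators (3 with all arrays). They ran from 0 to 5 of 14 for mitochondrial release and 0 to 4 of 10 for death receptors. For caspases they ran from 0 to 3 of 6, for the p53 pathway 0 to 3 of 13, and for other BCL2 relatives 0 to 2 of 11. Without control 2 and knockout 3 together, where 4644 genes passed over all, they were 11, 7, 3, 1, 5 and 7 in the same order. With controls 1 and 3 averaged, 194 of 12277 genes passed over all. None of the 10 called genes outside the members did, with limma adjusted p from 0.0701 for Aen to 0.164 for Bnip3. With single arrays left out, Aen and Pim3 passed in 3 of 6 fits, Htra2, Casp6 and Tnfrsf21 in 2, and Bnip3, Casp4, Tigar, Bag4 and Bag1 in 1. The sign of these 10 genes did not turn in 22 alternatives.

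**Figure D5:**
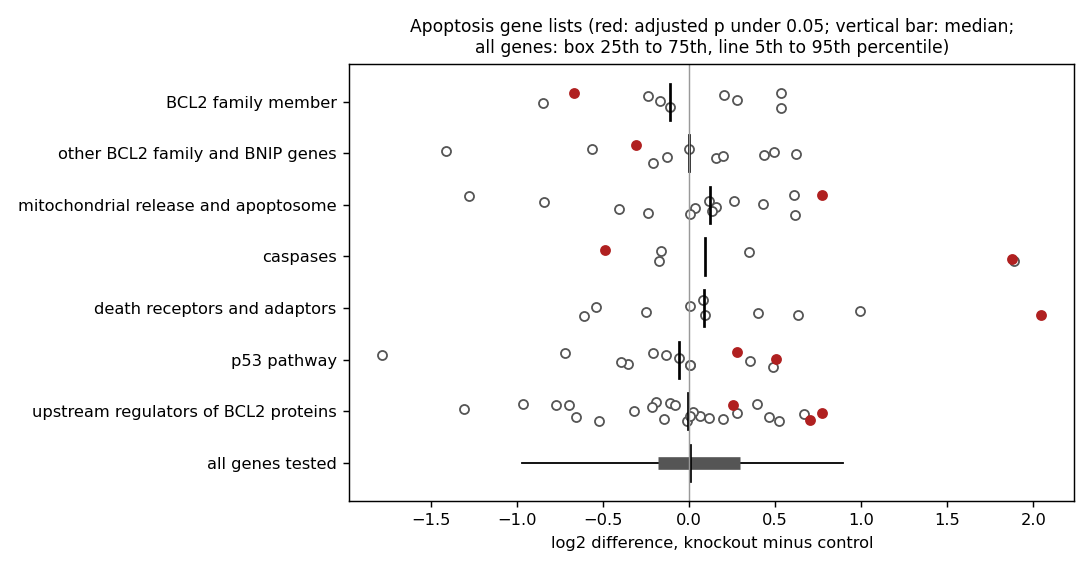
Difference of log2(intensity + 16), knockout minus control, for each tested gene of the BCL2 family and of 6 related lists, with the list median as a vertical bar and red for genes that passed over all 12277 genes. The bottom row gives the spread of all genes; list medians lie between -0.11 and 0.12.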

How the data were processed

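Total RNA was amplified, labelled with biotin and hybridised, 1 array per sample, per the labels' protocols. The authors deposited linear intensity values, 1 for each probe set in each sample; per the submitters' processing notes MAS5 and GCRMA were used, with roles and versions not given in the sources used here. The values show nearly equal quantiles between arrays and a floor, so no further normalization was applied; such processing pulls dim probe sets to 1 level and understates their differences.

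The table had 45101 probe sets, 64 of them array controls. By the platform annotation 34958 named 1 gene, 932 several (left unnamed) and 9211 were unlisted. Values were taken as log2(intensity + 16). A filter removed the dimmest 40% by mean signal, leaving 27022 probe sets, and the brightest stood for each of 12277 genes. Groups, taken from sample titles, were compared with limma 3.58.1 in R 4.3.3 (lmFit, eBayes, two-sided, Benjamini-Hochberg over all genes, threshold 0.05). The fit was checked on simulated data with independent noise, which leaves out the spread within groups that genes share here. Figures used matplotlib 3.10.9. The number of arrays, 3 per group, limits the precision. Named genes were the members, Epas1, up to 4 genes per list with the smallest p, and the 3 genes most correlated with the member of largest difference; further list members, and the cell type markers given, were named after their values were seen. Members, lists and alternatives were chosen with earlier results of these data known. The alternatives were scaling, pseudocount, filter, eBayes settings, array weights, probe set summary, replicate block, spike-in covariate, and arrays left out or averaged.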

Additional observations from a re-analysis of the deposited data

How the results depend on the processing

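Scaling, pseudocount, eBayes settings and a stricter filter kept Bcl2l11 as the 1 called member of 9; with the mean of probe sets it was Mcl1 and not Bcl2l11 (-0.29, limma adjusted p = 0.134). The count of members was 0 without a filter, with a looser filter, with every probe set tested on its own, with the spike-in covariate and with controls 1 and 3 averaged (limma; 3, 3, 3, 1 and 3 at an unadjusted p under 0.05), 4 without control 2 and knockout 3, and 8 with array weights, whose fit did not fully converge. For all genes the count was 1683, against 883 without a filter, 444 with the spike-in covariate, 194 with controls averaged, 4644 without control 2 and knockout 3, and 8541 with array weights. With each array left out it ran from 207 to 3008, from 0 to 4 for members and from 0 to 6 for their probe sets (3 with all arrays, 10 without control 2 and knockout 3, leave-outs of probe sets being chosen after seeing the data). With the spike-in covariate the differences turned to 0.057 for Bcl2, -0.17 for Bak1, -0.069 for Bid and 0.49 for Pmaip1; with single arrays left out Pmaip1 ran from -0.335 to 0.069, the latter without knockout 2. The cause was not tested. With the replicate block 2 members (Bcl2l11 and Bcl2l1) and 2995 genes passed. Deviations of arrays with the same number correlated at -0.466, 0.845 and 0.805, which does not settle whether the numbers pair the samples. The main fit used no block. Signal over background limits Bbc3 and the dim probe sets of Bcl2, Bcl2l11 and Bid.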
